A study of Mus musculus with 6 samples.

Results

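The genes described here are 33 markers of neurons, astrocytes and neural progenitors, cell types that belong to brain tissue, read in whole lateral ventricle choroid plexus. They were chosen by name: 25 neuron genes, 6 astrocyte genes and 2 progenitor genes. In the platform annotation 32 of the 33 had at least 1 probe set named for that gene alone, 80 probe sets in all, and Grin1, a glutamate receptor gene, had none. A gene was tested when its brightest probe set reached a mean log2 value of 4.92, the 40th percentile of all probe sets, and 30 members did so among 12681 genes tested. The samples were 3 male CD1 mice aged 18 months and 3 male CD1 mice aged 2 months, an outbred stock with no transgene or treatment named in the labels. The left and right lateral plexus of an animal went onto its own array, so that every array is a separate mouse. Mice are called 1, 2 and 3 within each age after the replicate numbers of the labels, which name no pairing of animals across ages.

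The choroid plexus is a fringe of epithelium over a vascular stroma that hangs into the ventricle and is attached to the brain along a thin line. Neurons signal by fusing transmitter-filled vesicles with the membrane at synapses and carry a dedicated cytoskeleton of microtubules and neurofilaments in their processes. Astrocytes clear glutamate and potassium from the space around synapses, share small molecules through gap junctions and wrap vessels with their endfeet. In bulk tissue, fewer cells of a type and less RNA per cell cannot be told apart, and an array compares a transcript between samples, not 1 transcript with another.

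The arrays had median log2 values between 5.56 and 5.65. Bacterial control probe sets, a gauge of background, had a highest mean log2 value of 4.51. The epithelial markers of the labelled tissue were present: 11 of 13 listed genes were tested, and Ttr, the thyroxine carrier transthyretin, lay between 14.25 and 14.36 at 18 months and between 14.46 and 14.48 at 2 months on the log2 scale. The median deviation of those 11 genes from their own 6-array means stayed between -0.05 and 0.04 on every array. Single genes moved more: Aqp1 ran from 10.95 to 12.02. In 1 of the 11 all 18-month mice were above all 2-month mice and in 3 all were below, against 13.3% of all genes for either direction.

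The neuron and astrocyte genes varied from mouse to mouse more than most transcripts did. Mouse 3 of each age was the highest for most members, and mouse 2 at 2 months was often the lowest. Mouse 1 at 18 months was low for neuron genes, and none of the 6 astrocyte genes was lowest there. Of the 30 members tested, 17 were highest in 18-month mouse 3 and 7 in 2-month mouse 3, while 10 were lowest in 18-month mouse 1 and 13 in 2-month mouse 2. In 28 of 30 members the highest and lowest arrays differed by at least 1 on the log2 scale (2-fold), against 42.0% of all genes tested. The median SD within an age was 0.91 for the members and 0.31 for all genes, and 20 of the 30 members stood above the 90th percentile of that spread.

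**Figure D1:**
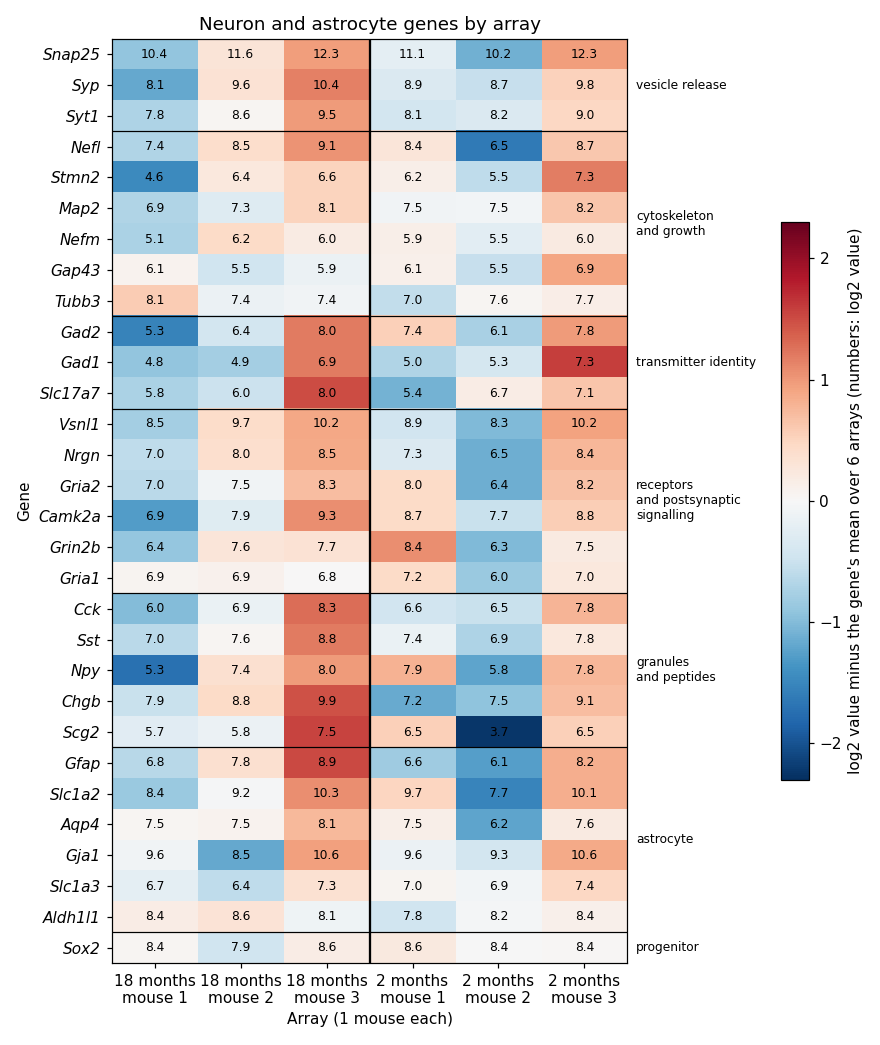
Rows are the 30 members tested, grouped by role, and columns are the 6 arrays (3 mice at 18 months, then 3 at 2 months). Colour is the log2 value minus the gene's mean over the 6 arrays and the printed numbers are the log2 values. Mouse 3 of each age is red in most rows, whereas mouse 2 at 2 months is blue in most rows and mouse 1 at 18 months in most neuron rows.

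Genes of vesicle release set the pattern. Snap25, a membrane protein of the complex that drives vesicle fusion, had log2 values of 10.43, 11.63 and 12.29 in 18-month mice 1 to 3, against 11.10, 10.23 and 12.30 in 2-month mice 1 to 3. The ages overlapped from end to end, with mouse 3 of each age at the top. Syp, which encodes the vesicle membrane protein synaptophysin, had 8.09, 9.60 and 10.42 at 18 months, against 8.94, 8.74 and 9.79 at 2 months. Syt1, the calcium sensor of release, had 7.83, 8.58 and 9.52 at 18 months, against 8.12, 8.20 and 9.02 at 2 months. In both genes the ages overlapped too, and mouse 3 was the highest of its age. The range over the 6 arrays was 2.07 for Snap25, 2.32 for Syp and 1.69 for Syt1.

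Cytoskeletal and growth genes followed this order in part. Nefl, the light neurofilament chain, had log2 values of 7.41, 8.51 and 9.13 at 18 months, against 8.38, 6.47 and 8.72 at 2 months. Stmn2, a microtubule regulator of growing neurites, had 4.64, 6.36 and 6.62 at 18 months, against 6.24, 5.53 and 7.28 at 2 months. Map2, the microtubule protein of dendrites, had 6.90, 7.30 and 8.12 at 18 months, against 7.52, 7.53 and 8.23 at 2 months. In these 3 genes the lowest array was again a mouse low in Snap25. Nefm, the medium neurofilament chain, had 5.05, 6.22 and 5.97 at 18 months, against 5.91, 5.53 and 5.99 at 2 months, with its highest value in 18-month mouse 2. Gap43, a growth cone protein, had 6.08, 5.55 and 5.86 at 18 months against 6.12, 5.47 and 6.90 at 2 months, so that only 2-month mouse 3 stood out. Tubb3, the neuronal beta-tubulin, went another way, with 8.11, 7.39 and 7.45 at 18 months and 6.97, 7.57 and 7.69 at 2 months. Its highest array was 18-month mouse 1, which was low for Snap25.

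Transmitter genes had wide ranges. Slc17a7, the vesicular glutamate transporter of cortical and hippocampal neurons, had log2 values of 5.77, 6.01 and 7.99 at 18 months, against 5.40, 6.67 and 7.14 at 2 months. Gad1, a glutamate decarboxylase that makes the inhibitory transmitter GABA, had 4.83, 4.94 and 6.92 at 18 months, against 5.03, 5.33 and 7.32 at 2 months. Gad2, the second such enzyme, had 5.29, 6.41 and 8.03 at 18 months, against 7.38, 6.08 and 7.81 at 2 months. In these probe sets, markers of excitatory and of inhibitory neurons were thus both highest in mouse 3 of each age. For Gad1 the other 4 arrays lay between 4.83 and 5.33, near the filter of 4.92. The second Gad1 probe set above the filter had 4.93, 5.41 and 6.22 at 18 months. At 2 months it had 4.19, 5.54 and 5.28, with mouse 2 the highest.

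Receptor and postsynaptic genes held the members most like Snap25. Vsnl1, a neuronal calcium sensor, had log2 values of 8.52, 9.72 and 10.20 at 18 months, against 8.87, 8.28 and 10.23 at 2 months. Nrgn, a calmodulin-binding protein of dendritic spines, had 7.02, 7.99 and 8.48 at 18 months, against 7.27, 6.47 and 8.36 at 2 months. Both placed the 6 mice almost as Snap25 did. Camk2a, the alpha subunit of the synaptic calmodulin kinase, had 6.94, 7.94 and 9.29 at 18 months, against 8.65, 7.71 and 8.79 at 2 months. Gria2, an AMPA-type glutamate receptor subunit, had 6.96, 7.48 and 8.28 at 18 months, against 8.01, 6.45 and 8.24 at 2 months. Grin2b, an NMDA-type receptor subunit, was highest in 2-month mouse 1, at 6.44, 7.60 and 7.65 at 18 months against 8.40, 6.31 and 7.53 at 2 months. Gria1, another AMPA-type subunit, was nearly level at 18 months (6.86, 6.90 and 6.80) in the probe set that stands for it. That probe set had 7.23, 5.95 and 7.04 at 2 months, and its single low array was 2-month mouse 2. The second Gria1 probe set above the filter was not level, with 6.58, 4.91 and 7.41 at 18 months. Its lowest array was 18-month mouse 2, and 2-month mouse 2 was the lowest of its age.

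Granule and neuropeptide genes had the widest range of a neuron group, with a median of 2.63 over the 6 arrays. Scg2 and Chgb encode granins, proteins that pack dense-core granules, and Cck, Npy and Sst encode the peptides cholecystokinin, neuropeptide Y and somatostatin. Sst is a textbook target of cyclic AMP signalling through the palindromic element TGACGTCA. RefSeq (GRCm38.p6) promoters were given for 24 of the 33 members. In the 250 bases before the start 3 of the 24 held this element. All 3 were among the 5 granule and peptide members, a number that counts genes named, not windows searched. It occurred in 1.55% of 32851 promoter windows. The shorter core TGACG, searched on both strands and contained in the full element, was in 17.8% of windows and in 8 of the 24 members, Cck included. The windows of the 3 genes that share the element are shown, with the element in capitals. The window of Sst is chr16:23890845-23891094 on the minus strand, that of Chgb is chr2:132781392-132781641 on the plus strand and that of Scg2 is chr1:79440027-79440276 on the minus strand.
Sst: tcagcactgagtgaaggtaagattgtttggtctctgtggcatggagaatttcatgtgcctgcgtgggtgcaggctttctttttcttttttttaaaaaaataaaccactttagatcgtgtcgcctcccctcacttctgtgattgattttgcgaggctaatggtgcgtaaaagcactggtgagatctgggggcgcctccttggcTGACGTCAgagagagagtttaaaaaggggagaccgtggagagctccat
Chgb: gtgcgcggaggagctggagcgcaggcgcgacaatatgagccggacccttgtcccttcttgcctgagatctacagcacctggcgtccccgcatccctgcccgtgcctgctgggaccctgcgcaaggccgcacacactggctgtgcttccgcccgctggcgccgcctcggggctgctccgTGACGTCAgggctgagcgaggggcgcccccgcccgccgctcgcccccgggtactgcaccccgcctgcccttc
Scg2: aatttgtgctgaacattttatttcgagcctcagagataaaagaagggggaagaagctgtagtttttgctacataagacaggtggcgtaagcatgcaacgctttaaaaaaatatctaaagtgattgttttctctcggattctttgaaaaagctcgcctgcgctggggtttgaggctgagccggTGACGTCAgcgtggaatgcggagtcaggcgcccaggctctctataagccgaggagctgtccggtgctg
The element began 48 bases before the start in Sst, 72 in Chgb and 68 in Scg2. A match describes these letters only, and binding was not measured.

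The 3 genes with the element had their highest array in the same animal. Sst had log2 values of 6.95, 7.63 and 8.78 at 18 months, against 7.43, 6.86 and 7.83 at 2 months. Chgb had 7.89, 8.83 and 9.86 at 18 months, against 7.24, 7.47 and 9.10 at 2 months. Scg2 had 5.69, 5.82 and 7.50 at 18 months, against 6.51, 3.71 and 6.50 at 2 months, where mouse 2 was under the highest bacterial control. All 3 peaked in 18-month mouse 3. Cck, without the full element, had 6.01, 6.86 and 8.29 at 18 months, against 6.56, 6.50 and 7.79 at 2 months. For Npy neither form was found, and whether its window was among the 24 promoters was not recorded. Its log2 values were 5.34, 7.43 and 8.03 at 18 months, against 7.85, 5.84 and 7.82 at 2 months. Cck and Npy also peaked in 18-month mouse 3. The shared peak thus did not separate the genes in which the element was found from the others.

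Astrocyte genes followed Snap25 to different degrees. Gfap, the intermediate filament of astrocytes, had log2 values of 6.77, 7.77 and 8.92 at 18 months, against 6.58, 6.14 and 8.25 at 2 months. Slc1a2, the main glutamate uptake carrier of the forebrain, had 8.41, 9.24 and 10.32 at 18 months, against 9.75, 7.74 and 10.10 at 2 months. Aqp4, the water channel of endfeet, had 7.45, 7.49 and 8.14 at 18 months, against 7.54, 6.19 and 7.62 at 2 months. These 3 were lowest in 2-month mouse 2 and highest in 18-month mouse 3. Gja1, a gap junction protein of the connexin family, had 9.60, 8.52 and 10.65 at 18 months, against 9.55, 9.28 and 10.57 at 2 months. Slc1a3, the second glutamate carrier, had 6.75, 6.40 and 7.32 at 18 months, against 7.04, 6.92 and 7.45 at 2 months. In the probe sets that stand for Gja1 and Slc1a3 the lowest array was 18-month mouse 2. Over the 6 arrays they correlated with each other at 0.94 (a description, with no test). Some other probe sets of both genes had the same lowest array, but not all. Gja1 1415801_at was highest in 18-month mouse 2 (7.28), and Slc1a3 1426341_at was lowest in 2-month mouse 2 (6.07). Aldh1l1, a folate enzyme used as a pan-astrocyte marker, stayed within 0.78 across arrays, at 8.41, 8.57 and 8.14 at 18 months, against 7.79, 8.20 and 8.37 at 2 months.

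Sox2 did not follow Snap25, and Nes and Dcx were too dim to be tested. Sox2, a transcription factor of neural stem cells, had log2 values of 8.42, 7.92 and 8.56 at 18 months, against 8.60, 8.38 and 8.41 at 2 months, a range of 0.68. Nes, the filament protein nestin of progenitors, and Dcx, the microtubule protein of migrating neuroblasts, did not pass the filter. The brightest of the 4 Dcx probe sets had a mean log2 value of 4.44, under the highest bacterial control. The brightest of the 3 for Nes had 4.52, and reached 5.97 in 18-month mouse 1 with 3.91 to 4.40 on the other arrays.

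The question of how far the members moved together was put by correlating every tested gene with Snap25 over the 6 arrays. Of the 29 other members, 15 had a Pearson r of at least 0.8, against 3.45% of all genes tested (437 genes). The median r was 0.85 for 22 neuron members, 0.65 for 6 astrocyte members and -0.09 for all genes. Genes share arrays, normalization and tissue pieces, so that members are not independent of each other. By exact permutation 15 of the 29 had a two-sided p under 0.05 with r above 0, against 3.33% of all genes. No correlation passed Benjamini-Hochberg adjustment over the 12680 genes (lowest adjusted exact permutation p = 0.507), where 6 arrays allow no p below 0.00139 for r.

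Vsnl1 and Nrgn came closest to Snap25. For Vsnl1 r was 0.99 (exact permutation p = 0.00139, the smallest possible) and Spearman's rho 1.00 (exact permutation p = 0.00278). For Nrgn r was 0.98 (exact permutation p = 0.00278) and rho 0.94 (exact permutation p = 0.0167). Among astrocyte genes Gfap gave r = 0.94 (exact permutation p = 0.0167) and rho 0.89 (exact permutation p = 0.0333), and Slc1a2 gave r = 0.92 with the same p values and rho. After adjustment over all genes the p for r was 0.507 for Vsnl1 and Nrgn and 0.531 for Gfap and Slc1a2, and the p for rho was 0.646 for Vsnl1 and Nrgn and 0.674 for Gfap and Slc1a2. Without the 2 arrays farthest from the median of Snap25 (2-month mice 2 and 3), r was 0.98 for Vsnl1, 0.98 for Nrgn, 0.91 for Gfap and 0.86 for Slc1a2. With the mean of each age taken out, r was 0.99 for Vsnl1, 1.00 for Nrgn, 0.98 for Gfap and 0.92 for Slc1a2. With 3 arrays an age, no value was given for each age alone.

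At the other end, 3 members had an r near or below 0. Tubb3 had r = -0.24 (exact permutation p = 0.653) and rho -0.09 (exact permutation p = 0.919), Sox2 had r = -0.02 (exact permutation p = 0.974) and Aldh1l1 had r = 0.10 (exact permutation p = 0.878). Gap43 (0.47), Slc1a3 (0.50), Gria1 (0.53) and Gja1 (0.55) lay between, and 2 of these rested on 2-month mice 2 and 3, without which r turned to -0.58 for Gap43 and -0.32 for Gria1. In the probe sets that stand for the genes, the other 2 depended on 18-month mouse 2. Without it r was 0.95 for Slc1a3 and 0.96 for Gja1. Across the mice left out in turn, their lowest r was 0.27 for Slc1a3 and 0.35 for Gja1. The count of members at or above 0.8 was 18 with age-centred values, where 5.89% of all genes reached it. Without both arrays of highest Snap25 (mouse 3 of each age) it fell to 9 of 29, against 8.53% of all genes over the 4 arrays left.

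**Figure D2:**
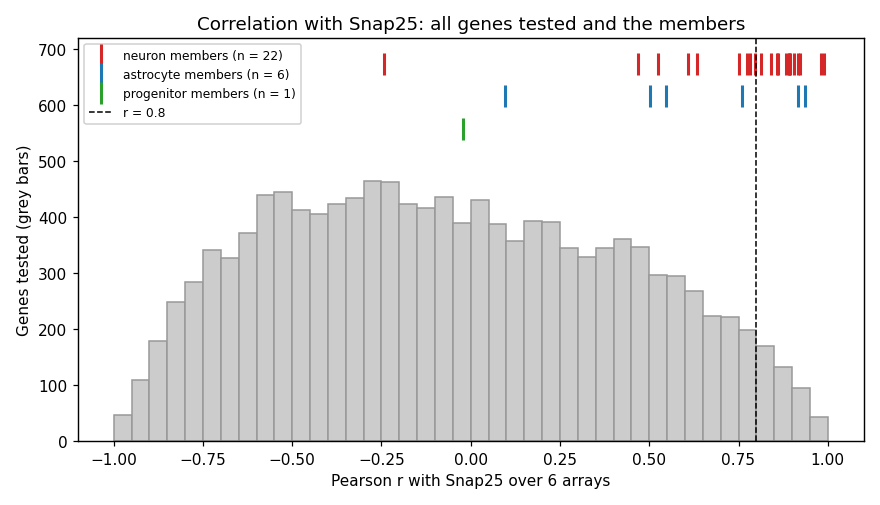
Grey bars count all genes tested by their Pearson r with Snap25 over 6 arrays, and coloured ticks mark the other 22 neuron, 6 astrocyte and 1 progenitor members. Of these 29 members 15 lie at or right of the dashed line at 0.8, where 3.45% of all genes lie. Tubb3 is the red tick left of 0.

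Among pairs of neuron members the median r was 0.73 (253 pairs), against 0.58 for pairs of an astrocyte with a neuron member (138 pairs) and 0.49 for pairs of astrocyte members (15 pairs). These medians were not compared by a test. Further genes of the same cell types were read from lists. Of 35 further neuron genes tested from a list of 46, 16 reached an r of 0.8 with Snap25, among them Thy1, a neuronal surface protein (0.97), Sv2b, a vesicle glycoprotein (0.94), and Mapt, the axonal protein tau (0.93). Others did not, such as Dlg4, a postsynaptic scaffold (-0.55), and Scg5, a granule chaperone (-0.71). Of 17 further astrocyte genes tested from 22, 7 reached it, among them the neurotensin receptor gene Ntsr2 (0.96), the potassium channel gene Kcnj10 (0.90) and Glul, glutamine synthetase (0.89). Mlc1, a membrane protein of endfeet, stood at -0.81. The genes that are no member and most like Snap25 were Sh3gl2, Spag9, Fabp5, Parp6, Camk2b, Atp6v1g2, Asxl2, Dkk3, Nrsn1 and Nrip3, each with r of at least 0.97 over the 6 arrays. Camk2b, the beta subunit of the calmodulin kinase, had log2 values of 5.06, 5.85 and 6.07 at 18 months, against 5.33, 5.05 and 6.22 at 2 months.

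Some myelin genes had the order of Snap25. Of 13 oligodendrocyte markers tested 7 had r of at least 0.8 with Snap25, Mbp and Cldn11 at 0.97, whereas Mog, a protein of the myelin surface, had 0.48. Their median deviation from the 6-array mean was -0.47, 0.10 and 0.76 in 18-month mice 1 to 3 and 0.03, -1.06 and 0.67 in 2-month mice 1 to 3. For the neuron members it was -0.73, 0.05 and 0.97 at 18 months and -0.08, -0.72 and 0.65 at 2 months. For the astrocyte members it was -0.16, 0.03 and 0.85 at 18 months and -0.04, -0.81 and 0.65 at 2 months. The part of oligodendrocytes in these values was not tested. An r of 0.8 was reached by 0 of 11 plexus epithelium, 0 of 9 ependymal, 0 of 7 macrophage, 0 of 6 endothelial, 0 of 5 stromal and 0 of 2 pituitary markers, and by 2 of 5 neuroblast and stem cell markers, Tubb2b (0.93) and Cd24a (0.92). Of neurons by region, 3 of 6 hippocampus and cortex markers reached it, namely Tbr1 (0.90), Neurod2 (0.83) and Nptx1 (0.81), against 1 of 4 for striatum (Penk, 0.89) and 0 of 5 for thalamus and habenula. Differences between these small lists were not tested. These counts take positive r only. Among the 11 plexus epithelium markers r with Snap25 ran from -0.62 to 0.62. With the mean of each age taken out, r was -0.92 for Kcne2 and -0.81 for Ttr, against a median of -0.08 for the list.

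**Figure D3:**
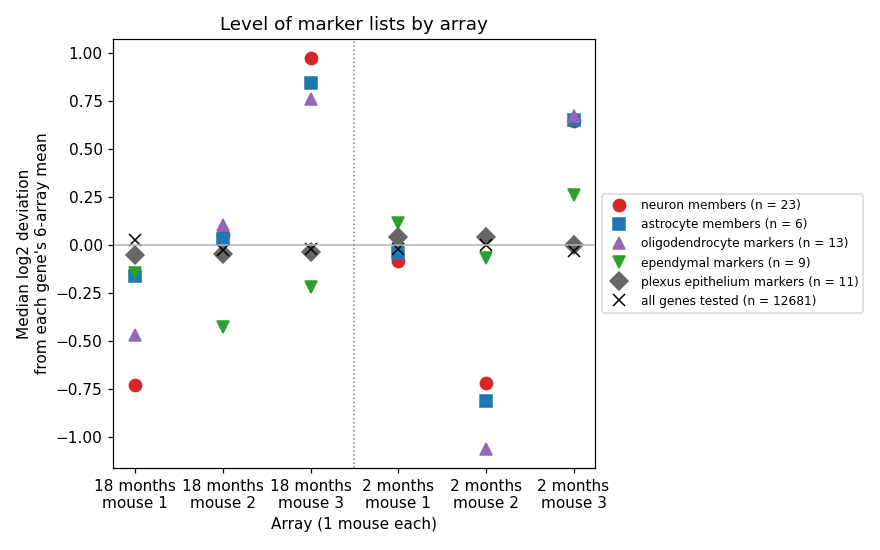
Each point is the median, over the genes of a list, of the log2 value minus the gene's own mean over the 6 arrays, for 3 mice at 18 months and then 3 at 2 months. In mouse 3 of each age the neuron, astrocyte and oligodendrocyte lists are high (neuron members 0.97 at 18 months and 0.65 at 2 months) and in 2-month mouse 2 they are low (-0.72), while plexus epithelium markers stay between -0.05 and 0.04.

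The study asked how plexus transcripts differ between ages, and none of the members passed that test. By limma 0 of 30 members had an adjusted p under 0.05 in either direction, where 0.0% of all genes were called higher and 0.0% lower at 18 months. At an unadjusted p under 0.05 there were 0 of 30, against 7.05% of all genes, and in 0 of 30 were the 3 mice of 1 age beyond all 3 of the other, against 13.3% of all genes. Adjusted p ran from 0.819 to 0.999. Of the differences 18 lay above and 12 below 0, with a median of 0.12 against 0.00 for all genes. The median SE was 0.60, and the 95% confidence intervals together reached from -2.31 (Gad2) to 2.84 (Scg2). With 3 mice an age, sizable differences either way were thus not excluded for the most variable members. Of the further neuron genes 1 of 35 had a positive difference (Sv2a, a vesicle glycoprotein, 1.01, SE 0.20) and 1 a negative one (Nefh, the heavy neurofilament chain, -2.00, SE 0.56) at an unadjusted p under 0.05, and 0 passed adjustment. The figures for further astrocyte genes were 1 of 17 positive (Slc6a11, a GABA transporter, 0.91, SE 0.36) and 0 negative, with 0 passing adjustment.

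In the marker lists of other cells some genes had an unadjusted p under 0.05 between ages, as did 7.05% of all genes. None passed limma's adjusted threshold. Genes of a list share arrays and tissue pieces, so that they are not independent of each other. Of the 13 oligodendrocyte genes 12 were above 0, against 6393 of all 12681 genes tested. Of the 13, 2 had an unadjusted p under 0.05, Mog (1.75, SE 0.33) and Ermn, a myelin cytoskeletal protein (2.26, SE 0.88). Of 3 reactive astrocyte genes tested from 8, 1 did, the secreted protease inhibitor Serpina3n (1.72, SE 0.59). Among 7 macrophage genes 4 did, Ms4a7 (2.04, SE 0.35), Lyz2 (1.36, SE 0.31), Aif1 (1.34, SE 0.44) and C1qb (0.68, SE 0.27). Among 9 ependymal genes 2 did, with negative differences, Mlf1 (-0.82, SE 0.19) and Fam183b (-2.81, SE 0.77). Both pituitary genes tested did, the growth hormone gene Gh (4.98, SE 0.45, limma adjusted p = 0.054) and Pomc (1.34, SE 0.42). In the other lists such genes were Aqp1 (0.64), Prox1 (1.13), Prkcd (-0.82) and Dcn (-0.72). The part of these cells in the members' values was not tested.

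Chgb had the smallest p among the members, at 8.86 ± 0.98 at 18 months and 7.94 ± 1.02 at 2 months (SD, n = 3 each), which made a log2 difference of 0.93 (SE 0.65, limma adjusted p = 0.819) with a 95% confidence interval from -0.64 to 2.49. Gfap averaged 7.82 ± 1.08 at 18 months and 6.99 ± 1.11 at 2 months (SD, n = 3 each), and differed by 0.83 (SE 0.71, limma adjusted p = 0.848). Aqp4 differed by 0.58 (SE 0.43), Scg2 by 0.76 (SE 0.87), Slc1a2 by 0.13 (SE 0.73) and Snap25 by 0.24 (SE 0.65). On the other side Gad2 differed by -0.51 (SE 0.75) and Stmn2 by -0.48 (SE 0.64). None of these passed the test, and in each gene the ages overlapped. For Aqp4 and Gad2 the direction depended on the probe set: the other 2 Aqp4 probe sets above the filter gave -0.48 and -0.36, and the second of Gad2 gave 0.16. The narrowest intervals belonged to the genes that varied least, from -0.68 to 0.36 for Sox2 and from -0.27 to 0.78 for Aldh1l1.

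**Figure D4:**
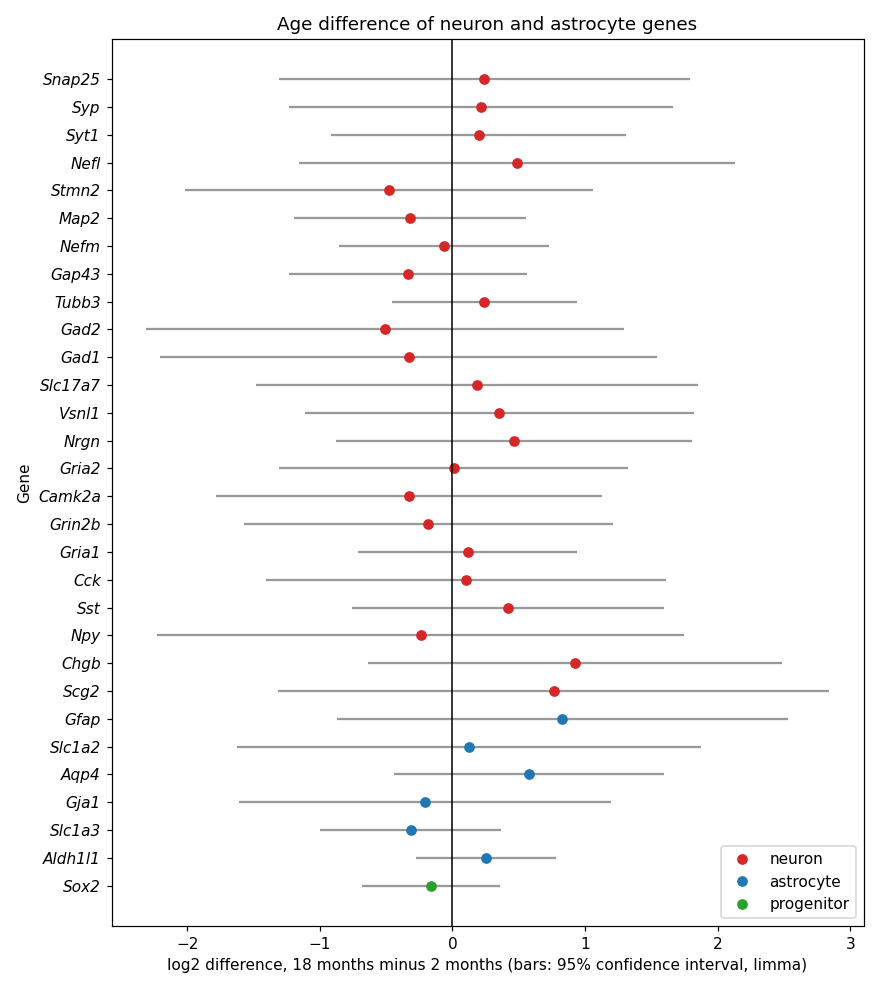
Points are log2 differences, 18 months minus 2 months, of the 30 members tested and bars are 95% confidence intervals from limma (3 mice each). Every interval includes 0, and those of Scg2 and Gad2 are among the widest.

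Because Snap25 differed so much between mice, the ages were also compared with its log2 value as a covariate. SEs became smaller for the genes that follow it, and 0 of 29 members had an adjusted p under 0.05. At an unadjusted p under 0.05 there were 2, Gfap and Stmn2, against 7.64% of all genes. At equal Snap25 the difference was 0.57 for Gfap (SE 0.23, limma adjusted p = 0.652), -0.71 for Stmn2 (SE 0.22, limma adjusted p = 0.601) and 0.71 for Chgb (SE 0.32, limma adjusted p = 0.675).

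The probe sets of some members disagreed. Of 16 members with several probe sets above the filter, 8 had age differences of both signs, namely Aqp4, Camk2a, Gad1, Gad2, Gja1, Slc1a2, Slc1a3 and Syt1. All 3 probe sets of Gfap passed the filter, and probe set 1440142_s_at had log2 values of 6.69, 8.01 and 8.46 in 18-month mice 1 to 3 against 6.12, 3.33 and 5.37 in 2-month mice 1 to 3. The ages did not overlap there, but 2-month mouse 2 was not above background there, at less than the highest bacterial control of 4.51. Its means were 7.72 ± 0.92 at 18 months and 4.94 ± 1.45 at 2 months (SD, n = 3 each), and they differed by 2.78 (SE 0.78, limma adjusted p = 0.655 over 27022 probe sets). Without 2-month mouse 2 the difference was 1.97. The difference was 0.83 for 1426509_s_at, which stands for the gene above, and 0.10 for 1426508_at (SE 0.70). Among the 63 member probe sets above the filter this was the only 1 whose ages did not overlap, against 12.6% of all probe sets, and the only 1 with an unadjusted p under 0.05, against 6.47%. After adjustment 0 of the 63 passed, against 0.0037%. Which transcripts each probe set reads was not examined.

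**Figure D5:**
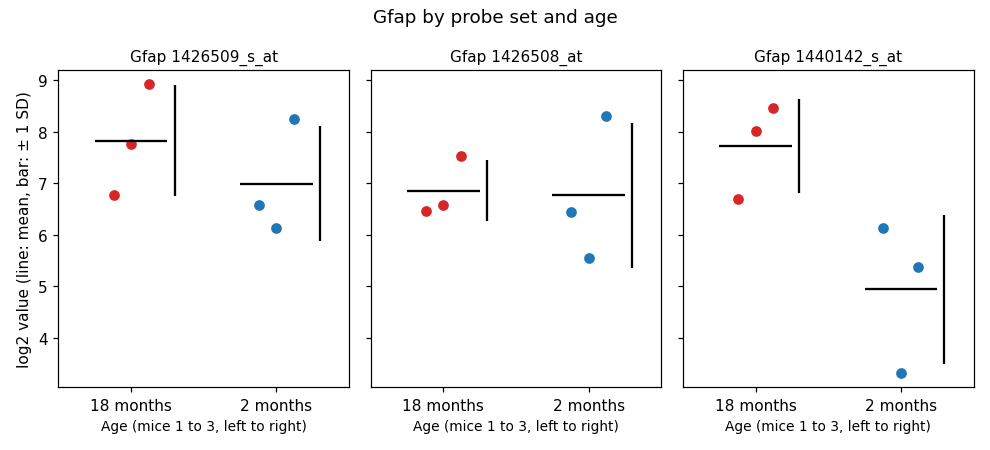
Each panel is a Gfap probe set, with log2 values of 3 mice at 18 months (red, left) and 3 at 2 months (blue, right), their mean (line) and 1 SD (bar). The ages overlap in the first 2 panels, with differences of 0.83 and 0.10, and are apart in the third, with 2.78.

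Syt1 had a second case, with probe set 1438282_at at 5.66, 6.59 and 7.10 at 18 months, against 4.90, 6.45 and 4.34 at 2 months, and r with Snap25 of -0.07 against 0.76 to 0.89 for its other 3. The differences of the 5 Slc1a2 probe sets above the filter ran from -0.03 to 0.54, and 1 of them, 1433094_at, stayed between 5.08 and 5.45 on all arrays with r of -0.25 against up to 0.97 for the others. For Gja1, all 6 probe sets passed, with r from 0.50 to 0.88. The second Snap25 probe set and both for Vsnl1 gave r of at least 0.98. Over all members, 29 of 62 probe sets above the filter reached an r of 0.8 with Snap25, against 3.53% of all probe sets.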

How the data were processed

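Total RNA of 6 choroid plexus samples was read on Affymetrix arrays. The miRNeasy kit gave the RNA and Nugen Pico amplification the cDNA, per the labels' protocols, and amplification can distort dim transcripts. The authors deposited intensity values of 45101 probe sets, made with RMA per the submitters' processing notes (version not given in the sources used here), on a linear scale from 2.47 to 26821. Their log2 was taken here.

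Genes were named from the platform annotation, and all 80 member probe sets matched a RefSeq gene identifier and symbol. The probe set with the highest mean stood for a gene. Ages were compared with limma 3.58.1 in R 4.3.3 (18 months minus 2 months, two-sided, no covariate, Benjamini-Hochberg adjustment over the 12681 genes tested, threshold 0.05). Correlations used all 720 pairings of the 6 arrays. Both steps were tested on simulated data. No arrays were identical, and their number limits the precision.

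The members and gene lists were chosen with earlier results of these data known. Named were all members, the 10 other genes of highest r with Snap25 and, of the up to 4 genes of smallest limma p in each marker list, those with an unadjusted p under 0.05. Genes quoted for their r in the lists, and probe sets, were chosen after their values were seen, as were the motif, the arrays left out in pairs and those left out for the Gfap probe set. The labels name no pairing by replicate number. Deviations from the age means correlated across ages at -0.02, 0.02 and 0.17 for mice 1, 2 and 3. The 0.17 for mouse 3 was the highest of all pairs of mice across ages. Whether mice of the same number shared any handling was not tested. Alternatives were other filters, probe set means, normalizations, covariates, array weights, the replicate number as a block, the ordinary 2-sample test and each mouse left out.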

Additional observations from a re-analysis of the deposited data

How the results depend on the processing

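Under all alternatives run, 0 members passed an adjusted p of 0.05 between ages. Over all genes the count was 0 as reported. It was 4 with a 60th percentile filter, 5 when all probe sets of a gene were averaged, 5 with median centring, 4 with array weights, 1 with Snap25 as covariate and 1 with Mbp as covariate. The cause was not tested. It stayed 0 with the replicate block (lowest limma adjusted p = 0.324), without each mouse in turn (0 to 0), with no filter, with quantile normalization and with the ordinary 2-sample test. The replicate number as a block changed no other call, and 18-month mouse 1 correlated best with 2-month mouse 2, not with its own number.

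Of 29 members, 15 had r of at least 0.8 with Snap25, against 3.45% of all genes. Without each mouse in turn the count was 13 to 20, against 4.66% to 6.30% of all genes. Without both arrays of highest Snap25 (added after seeing the data), which leaves 4 arrays, it was 9, against 8.53% of all genes. The cause was not tested. The sign of uncalled age differences turned for some members. Aqp4 gave -0.085 when its probe sets were averaged, and Slc1a2 gave -0.12 with Snap25 as covariate and -0.10 with array weights. Without each mouse in turn Snap25 ranged from -0.25 to 0.78, Scg2 from -0.17 to 1.23, Slc1a2 from -0.60 to 0.59, Stmn2 from -0.89 to 0.14 and Gad2 from -1.24 to 0.13. Chgb (0.43 to 1.51), Gfap (0.28 to 1.46) and Aqp4 (0.12 to 0.83) kept their sign there, as did Gfap probe set 1440142_s_at (1.97 to 3.37, added after seeing the data). Signals of Dcx and Nes lay near the bacterial controls, which limits what can be said of them.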
